A study of Mus musculus with 24 samples.

Results

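The regulators of fat synthesis Srebf1, Mlxipl, Mid1ip1 and Thrsp and the lipid droplet gene Pnpla3 were followed in epididymal white fat (eWAT) of mice, a pad attached to the testis. They were taken by gene symbol from the platform's gene table, which gave 7 probe sets for the 5 genes, out of 34390 probe sets and 22180 genes. The series holds 24 Affymetrix arrays of total RNA, 1 per mouse and 3 in each of 8 groups of genotype and circadian time (CT), the time of day of a mouse without light cues. MUT mice were Syt10-Cre/Cre x Bmal1-flox/- and CON mice were Syt10-Cre/Cre x Bmal1-+/-. Cre made from the Syt10 locus removes the floxed allele of the clock gene Bmal1 in cells that use that locus, and per the labels the clock of MUT mice is disabled in the suprachiasmatic nucleus (SCN), which paces the body's rhythms from the hypothalamus. Both genotypes carried Cre on both Syt10 alleles and lacked 1 copy of Bmal1 in every cell, fat included, so the controls were not wild type. After 2 weeks of light and dark all mice were moved to constant darkness, and eWAT was taken on the second day at CT1, CT7, CT13 or CT19. The labels state no age, sex or cohort. The question is whether and when the fat pad's programme for making lipid differed in mice whose central clock had been disabled.

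Srebf1 encodes SREBP-1, a membrane-bound transcription factor that is cut free to switch on genes of fatty acid synthesis, and insulin is a main signal for it. Mlxipl encodes ChREBP, the transcription factor that responds to sugar metabolites together with its partner Mlx. Thrsp (Spot 14) and Mid1ip1 (MIG12) are related small proteins, and MIG12 promotes the assembly of acetyl-CoA carboxylase, the enzyme that commits carbon to fatty acids, into active filaments. Pnpla3 encodes a lipid droplet protein of the patatin family whose transcription in mouse liver follows SREBP-1 and ChREBP, and which is abundant in mouse fat. In fat and liver these genes rise with feeding and fall with fasting.

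In the GRCm38.p6 annotation Srebf1 lies at chr11:60199084-60224186 and Mlxipl at chr5:135089890-135139768. Thrsp lies at chr7:97412933-97417550, Mid1ip1 at chrX:10717365-10719702 and Pnpla3 at chr15:84167776-84189521. RefSeq promoter windows of the same build, 250 bases before to 50 after a start site, were matched for 5 of 5 genes and gave 8 windows. They were searched on both strands for TCACCC, part of the sterol regulatory element to which SREBP binds, for CCAAT, the box of the factor NF-Y that works beside SREBP, and for the E-box CACGTG, of which the response element of ChREBP holds a pair of variants. These motifs do not overlap one another here. Of 32851 windows in the table, 16.2% held TCACCC, 37.4% CCAAT and 7.15% CACGTG. Both TCACCC and CCAAT were in 5.6%. Among the 8 windows these letters occurred together in 1 of the 3 of Srebf1 and in that of Pnpla3. In Srebf1 TCACCC stood 15 bases and CCAAT 30 bases before the start, and in Pnpla3 41 and 99 bases. Thrsp held CCAAT at 79 and 52 bases. One of the 2 windows of Mlxipl held CACGTG at 98 and CCAAT at 173 bases, and another window of Srebf1 held CCAAT at 166 bases. The window of Mid1ip1 held none of them. Promoters of Pnpla3, Srebf1 and Mid1ip1 are shown. The Pnpla3 and Srebf1 windows shown hold both TCACCC and CCAAT, and the Mid1ip1 window holds none of the motifs. Capitals mark TCACCC and CCAAT or its reverse complement ATTGG. The Pnpla3 window is chr15:84167566-84167865 on the plus strand, the Srebf1 window chr11:60210422-60210721 on the minus strand and the Mid1ip1 window chrX:10717115-10717414 on the plus strand.
Pnpla3: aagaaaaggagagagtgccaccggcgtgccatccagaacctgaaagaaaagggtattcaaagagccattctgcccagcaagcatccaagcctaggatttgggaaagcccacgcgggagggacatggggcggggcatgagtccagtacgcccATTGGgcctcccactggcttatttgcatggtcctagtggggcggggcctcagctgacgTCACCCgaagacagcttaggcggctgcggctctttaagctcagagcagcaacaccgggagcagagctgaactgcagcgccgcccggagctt
Srebf1: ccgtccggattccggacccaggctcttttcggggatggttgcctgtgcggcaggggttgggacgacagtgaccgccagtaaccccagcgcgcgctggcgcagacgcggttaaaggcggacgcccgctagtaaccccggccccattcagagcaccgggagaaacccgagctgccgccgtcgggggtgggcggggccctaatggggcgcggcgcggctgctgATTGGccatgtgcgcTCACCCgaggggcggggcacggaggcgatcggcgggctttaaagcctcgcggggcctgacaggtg
Mid1ip1: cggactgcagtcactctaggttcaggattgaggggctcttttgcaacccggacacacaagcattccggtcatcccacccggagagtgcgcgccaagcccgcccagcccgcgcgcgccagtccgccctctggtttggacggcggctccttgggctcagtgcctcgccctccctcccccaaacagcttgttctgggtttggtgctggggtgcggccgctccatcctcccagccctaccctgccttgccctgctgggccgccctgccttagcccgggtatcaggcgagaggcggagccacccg

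Signals are log2 values, so a difference of 1 is a doubling. All 5 genes passed the filter on dim genes, with mean signals at percentiles 96.5 (Srebf1), 97.1 (Mlxipl), 81 (Mid1ip1), 98.5 (Thrsp) and 98.8 (Pnpla3) of all genes. The labels name eWAT in their titles and mediobasal hypothalamus in their source field. The 9 adipocyte markers with a probe set of their own, of 10 listed, had a median percentile of 99.6, and 11 hypothalamus and neuron markers, of 12 listed, had 41.5. Arntl, the gene of BMAL1, had group means of 8.19 to 9.52 in MUT and 8.07 to 9.54 in CON, and its signal in fat does not check a deletion in the SCN. Array medians ran from 7.80 to 7.94 and precision is limited by having 3 arrays a group.

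One array stood apart before any comparison: CON CT19 replicate 2. The liver marker score is the median deviation from their means of the 4 liver genes above the filter, of 6 listed, without Fgb and Serpina1c. It was 1.33 on this array, against -0.42 to 0.61 on the 23 other arrays. Albumin (Alb) read 12.7 there and 8.62 to 11.68 elsewhere, and Serpina1c read 10.4 there and 5.44 to 9.0 elsewhere. Of 6 liver genes, 5 were highest on this array, and Cyp2e1, which fat also expresses strongly, was not. Its adipocyte score of -0.11 was the lowest of all arrays. MUT CT13 replicate 1 had the second highest liver score, 0.61, with Alb at 11.68. Since the 5 lipogenic genes are also abundant in liver, the calls of the 5 genes that use CON CT19 and their peak times are given with and without this array, as are counts of the gene lists at CT19 and of their rhythms in CON. Tests of single probe sets and their mean, counts over marker lists, and the genes most like each member are given with all arrays alone. The part of liver RNA in these results was not tested.

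Srebf1 was lowest in MUT mice at CT19 and highest in CON mice at the same time, and differed little between genotypes at other times. At CT1 Srebf1 read 10.96, 10.70 and 10.71 in MUT and 10.59, 11.02 and 10.63 in CON. At CT7 Srebf1 read 10.98, 10.58 and 11.15 in MUT and 10.82, 10.90 and 10.78 in CON. At CT13 Srebf1 read 10.94, 10.62 and 11.13 in MUT and 10.98, 10.68 and 10.70 in CON. At all 3 of these times the genotypes overlapped. At CT19 Srebf1 read 10.42, 10.55 and 10.44 in MUT and 11.18, 11.69 and 11.10 in CON. The 3 MUT arrays lay below all 9 other MUT arrays, and the 3 CON arrays lay above all 9 other CON arrays. Among all tested genes 1.1% lay below in this way in MUT and 2.05% lay above in CON.

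Mlxipl was nearly level over the day except for low MUT values at CT19. At CT1 Mlxipl read 10.98, 10.96 and 11.04 in MUT and 11.04, 11.02 and 11.06 in CON. At CT7 Mlxipl read 11.17, 11.01 and 11.11 in MUT and 11.06, 11.20 and 10.95 in CON. At CT13 Mlxipl read 11.21, 10.79 and 10.93 in MUT and 11.12, 11.13 and 10.69 in CON, again with overlap. At CT19 Mlxipl read 10.40, 10.56 and 10.82 in MUT and 11.07, 11.64 and 11.06 in CON. The groups did not overlap at CT19, but 2 of the 3 CON arrays there stood at the level of CON at CT1, and CON CT19 replicate 2 alone stood well above.

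Mid1ip1 stood out among the regulators: MUT mice had their high point at CT13 and CON mice at CT19. At CT1 Mid1ip1 read 9.38, 9.15 and 9.33 in MUT and 8.997, 9.47 and 9.04 in CON. At CT7 Mid1ip1 read 9.40, 9.12 and 9.58 in MUT and 8.79, 8.98 and 8.88 in CON. The genotypes overlapped at CT1 and not at CT7, where MUT was higher. At CT13 Mid1ip1 read 9.77, 9.78 and 10.36 in MUT and 9.43, 9.48 and 9.03 in CON. At CT19 Mid1ip1 read 8.93, 9.02 and 9.06 in MUT and 10.02, 10.65 and 9.74 in CON. The MUT arrays were all higher than CON at CT13 and all lower at CT19, and at CT19 each genotype stood apart from its own other 9 arrays.

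Thrsp varied less than Mid1ip1, its relative. At CT1 Thrsp read 11.43, 11.24 and 11.64 in MUT and 11.57, 11.95 and 11.50 in CON. At CT7 Thrsp read 11.64, 11.42 and 11.60 in MUT and 11.37, 11.40 and 11.43 in CON. At CT13 Thrsp read 11.49, 11.45 and 11.83 in MUT and 11.59, 11.79 and 11.06 in CON, so that the genotypes overlapped at these 3 times. At CT19 Thrsp read 10.997, 11.05 and 11.35 in MUT and 11.62, 12.04 and 11.84 in CON, with no overlap.

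Pnpla3, the lipid droplet gene, had the widest daily range in CON and was the only one of the 5 whose genotypes did not overlap at any time. At CT1 Pnpla3 read 12.02, 11.999 and 12.34 in MUT and 11.55, 11.75 and 11.60 in CON. At CT7 Pnpla3 read 11.87, 11.67 and 11.92 in MUT and 10.69, 10.75 and 10.31 in CON. At CT13 Pnpla3 read 12.38, 11.95 and 12.45 in MUT and 11.89, 11.81 and 11.11 in CON. MUT was thus the higher genotype at 3 of 4 times. At CT19 Pnpla3 read 11.02, 11.17 and 11.79 in MUT and 12.04, 12.43 and 12.18 in CON, which turned the order round. Groups that do not overlap were common: over all tested genes the share was 18.9% at CT1, then 25.6% (CT7), 22.2% (CT13) and 27.3% (CT19).

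**Figure D1:**
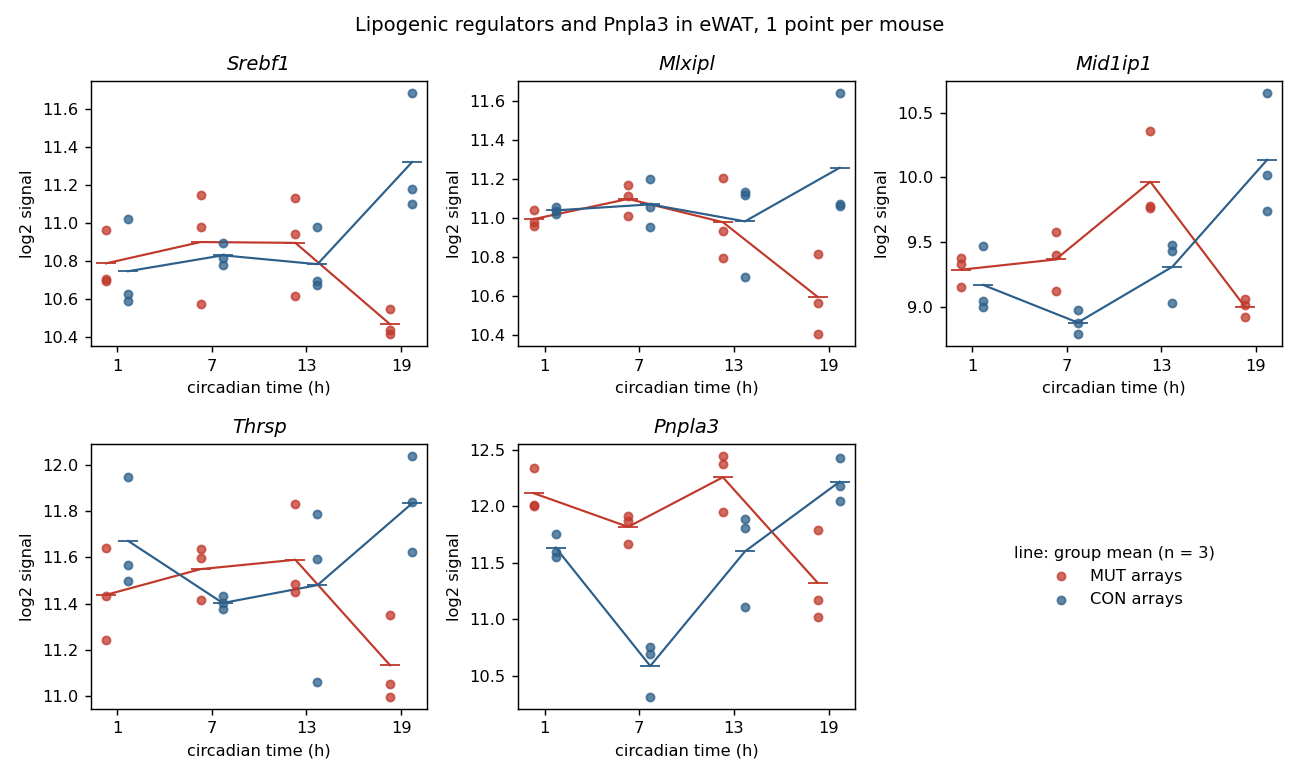
Log2 signal (y) of the 5 genes against circadian time in hours (x), 1 point per mouse, MUT drawn left of CON at each time, with bars and lines at the group means of 3 arrays. At CT19 the MUT points lie below the CON points in every panel, and for Pnpla3 MUT lies above CON at the other 3 times.

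Ordered by group mean, CON CT19 was the highest group for Srebf1 (11.32 ± 0.32), Mlxipl (11.26 ± 0.33), Mid1ip1 (10.14 ± 0.47) and Thrsp (11.83 ± 0.21; SD, n = 3). For Pnpla3 MUT CT13 came first at 12.26 ± 0.27, followed by CON CT19 at 12.22 ± 0.20. The lowest group was MUT CT19 for Srebf1 (10.47 ± 0.07), Mlxipl (10.59 ± 0.21) and Thrsp (11.13 ± 0.19). CON CT7 was the lowest group for Mid1ip1 (8.88 ± 0.09) and Pnpla3 (10.59 ± 0.24). Most neighbours in these orders overlapped. The exceptions were Srebf1 in MUT CT19 against CON CT1, Thrsp in MUT CT19 against CON CT7, Mid1ip1 in MUT CT13 against MUT CT7, and Pnpla3 in MUT CT1 against MUT CT7 and in MUT CT19 against CON CT7. The fold between the highest and lowest group mean was 1.35 in MUT and 1.49 in CON for Srebf1, 1.42 and 1.21 for Mlxipl, and 1.37 and 1.35 for Thrsp in the same order. It was 1.95 in MUT and 2.39 in CON for Mid1ip1, and 1.91 in MUT and 3.10 in CON for Pnpla3.

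At CT19, in the middle of the subjective night, all 5 genes were lower in MUT than in CON. Mice with an intact clock are active then, and no measure of activity was used here. Mid1ip1, by its brightest probe set, fell by 1.14 ± 0.18 (2.20-fold lower; SE of the limma model; Benjamini-Hochberg adjusted p = 0.00233). As the mean of its 3 probe sets its difference was -0.56, the smallest of the 5, so that its place in the order depends on the probe set. Pnpla3 fell by 0.90 ± 0.19 (1.86-fold lower, adjusted p = 0.0172) and Srebf1 by 0.85 ± 0.155 (1.81-fold lower, adjusted p = 0.00613). Thrsp fell by 0.70 ± 0.16 (1.63-fold lower, adjusted p = 0.0224) and Mlxipl by 0.66 ± 0.14 (1.58-fold lower, adjusted p = 0.0146). The 5 of 5 genes called lower compare with 0.812% of all 15526 tested genes (2.74% in either direction), at an adjusted p under 0.05. The 5 genes were chosen with earlier results of these data known, so this comparison is not a test of them as a set. Their values also correlate between mice of a group. In a piece of tissue a lower signal cannot be told apart from fewer cells that express the gene. Adipocyte marker scores overlapped at CT19, from -0.014 to 0.021 in MUT and from -0.11 to 0.043 in CON. Of the 8 marker lists 3 did not overlap there. Endothelium scores were 0.086 to 0.17 in MUT and -0.18 to 0.041 in CON, brown adipocyte scores -0.235 to -0.11 in MUT and 0.030 to 0.064 in CON, and liver scores -0.42 to -0.18 in MUT and -0.079 to 1.33 in CON. Their part in the differences at CT19 was not tested. These calls rested on few mice. Without CON CT19 replicate 2, the array with the liver genes, Mid1ip1 fell by 0.88 (adjusted p = 0.0276), while Srebf1 at -0.67 (adjusted p = 0.0777), Mlxipl at -0.47 (0.16), Thrsp at -0.60 (0.188) and Pnpla3 at -0.79 (0.16) no longer passed. The number of all genes called at CT19 was then 36, against 425 with all arrays. Without MUT CT19 replicate 1 or without MUT CT19 replicate 2, Srebf1 and Mid1ip1 were the 2 genes still called. Of all tested genes 50 and 61 were called at CT19 in these fits, in the same order.

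Pnpla3 was the only one of the 5 called at CT7, in the middle of the subjective day, when mice with an intact clock rest. It was higher in MUT by 1.23 ± 0.19 (2.35-fold, adjusted p = 0.00104), and 4.05% of all genes were called at this time (2.98% higher). Mid1ip1 at CT7 was 0.49 ± 0.18 above CON without passing (adjusted p = 0.131). At CT13 none of the 5 passed, with 0.322% of all genes called. Mid1ip1 differed by 0.66 ± 0.18 (adjusted p = 0.101) and Pnpla3 by 0.66 ± 0.19 (adjusted p = 0.11) at that time. At CT1 none passed either, with 0.0451% of all genes called, and Pnpla3 had the largest difference, 0.48 ± 0.19 (adjusted p = 0.308). Srebf1, Mlxipl and Thrsp differed by -0.23 to 0.15 at these 3 times, with adjusted p of 0.61 or more. At unadjusted p under 0.05, Mid1ip1 passed at CT7 and CT13 and Pnpla3 at CT1 and CT13. The share of all genes at that threshold was not taken. Without the 3 arrays of narrowest signal spread, which leaves 1 CON array at CT7, the value of Pnpla3 at CT7 was 1.13 (adjusted p = 0.068).

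**Figure D2:**
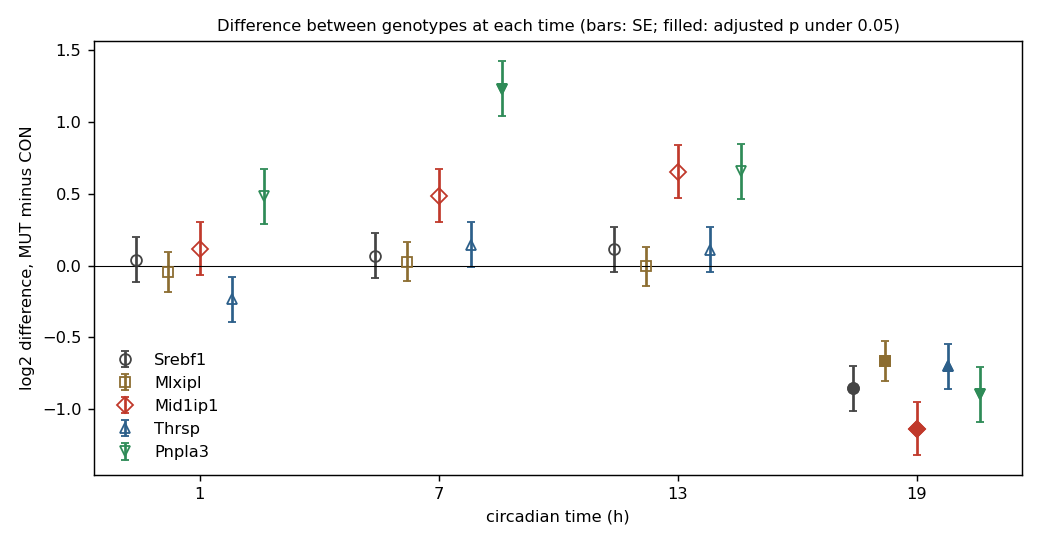
Difference between genotypes, MUT minus CON, in log2 (y) at each circadian time in hours (x) for the 5 genes, with SE bars of the limma model (3 arrays per group) and filled symbols where the adjusted p is under 0.05. All 5 filled symbols at CT19 lie below 0, and Pnpla3 at CT7 is the filled symbol above 0.

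Averaged over the 4 times, Pnpla3 was higher in MUT by 0.37 ± 0.10 (1.29-fold, adjusted p = 0.0118), and 21.7% of all genes were called in the daily mean (12.3% higher in MUT). The other regulators did not pass: Srebf1 differed by -0.16 (adjusted p = 0.137), Mlxipl by -0.17 (0.0738), Thrsp by -0.17 (0.114) and Mid1ip1 by 0.03 (0.824). For Pnpla3 the daily mean hides opposite differences, since it was higher in MUT at CT7 and lower at CT19. The daily mean of Pnpla3 differed by 0.40 without CON CT19 replicate 2 (adjusted p = 0.0132). Without the 3 arrays of narrow spread it differed by 0.38 and did not pass (adjusted p = 0.0608).

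A 24-h rhythm, measured as the peak-to-trough height, in log2, of the cosine fitted to the 4 times, was called in CON for 2 of the 5 genes, Mid1ip1 and Pnpla3, against 17.1% of all genes. Mid1ip1 had a size of 1.26 ± 0.18 (2.40-fold) with its peak at CT18.57 ± 0.558 (adjusted p = 0.000399). The rhythm of Pnpla3 was 1.63 ± 0.19 (3.10-fold), with a peak at CT19.08 ± 0.446 (adjusted p = 3.58e-05). Srebf1 at 0.49 (adjusted p = 0.0705), Thrsp at 0.47 (0.0876) and Mlxipl at 0.20 (0.526) did not pass. With that array of high liver markers left out, the sizes were 1.01 for Mid1ip1 (adjusted p = 0.00245) and 1.53 for Pnpla3 (adjusted p = 0.000428). Between the 2 times 12 h apart, CT19 and CT7, signals in CON were higher at CT19 for Pnpla3 by 1.63 (adjusted p = 1.57e-05), for Mid1ip1 by 1.26 (0.000148) and for Srebf1 by 0.49 (0.0431), with 10.7% of all genes called (7.47% higher at CT19). These values were 1.53 for Pnpla3 (adjusted p = 0.000243) and 0.998 for Mid1ip1 (0.00133) without CON CT19 replicate 2. The call of Srebf1 was lost without that array (0.31, adjusted p = 0.255) and in 14 of 37 alternatives in all. Thrsp, at 0.43 (adjusted p = 0.079), and Mlxipl, at 0.19 (0.441), did not pass. Between CT13 and CT1 none of the 5 passed in MUT or in CON. Of all genes 0.0515% did in MUT and 7.1% in CON. At unadjusted p under 0.05 Mid1ip1 passed in MUT (limma adjusted p = 0.259) and none in CON. The share of all genes at that threshold was not taken.

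In MUT none of the 5 genes was called rhythmic by limma, and 0.348% of all genes passed. At unadjusted p under 0.05 all 5 passed. The share of all genes at that threshold was not taken, so this count is not read as a rhythm. Fitted sizes were 0.45 for Srebf1 (adjusted p = 0.285), 0.50 for Mlxipl (0.154), 0.77 for Mid1ip1 (0.105), 0.44 for Thrsp (0.295) and 0.51 for Pnpla3 (0.324). Fitted peaks fell in the subjective day, at CT7.93 for Srebf1, CT6.88 for Mlxipl, CT8.34 for Thrsp, CT8.06 for Pnpla3 and CT11.11 for Mid1ip1. In CON they fell at CT18.71 for Srebf1, CT20.11 for Mlxipl and CT20.59 for Thrsp, beside those of Mid1ip1 and Pnpla3 above. On the 24-h clock the shift, MUT minus CON, was -10.78 ± 1.78 h for Srebf1, 10.77 ± 2.86 h for Mlxipl, 11.74 ± 1.84 h for Thrsp and -11.02 ± 1.49 h for Pnpla3, on arrays that include CON CT19 replicate 2. Each shift is given the shorter way round the clock. In these values the MUT and CON peaks of Srebf1, Mlxipl, Thrsp and Pnpla3 lay near opposite sides of it. The sign of their shifts therefore does not tell an earlier from a later peak. For Mid1ip1 the shift was -7.47 ± 1.07 h. For the clock genes Arntl, Nr1d1 and Dbp it was -4.57, -5.37 and -4.26 h. Without CON CT19 replicate 2 the shift was -10.61 ± 2.05 h for Srebf1, 11.32 ± 2.06 h for Thrsp, -11.03 ± 1.48 h for Pnpla3 and -7.36 ± 0.952 h for Mid1ip1. For Mlxipl it was then 5.63 ± 8.56 h, with a CON peak at CT1.25 and a CON size of 0.057, so that its CON peak rested on that array. These peak times are descriptions, since the rhythms of the 5 genes in MUT and of Srebf1, Thrsp and Mlxipl in CON did not pass. At CT19 against CT7 all 5 values in MUT were below 0, from -0.50 for Mlxipl to -0.37 for Mid1ip1, and none passed (adjusted p of 0.0823 to 0.379; 0.831% of all genes called). Mlxipl, Srebf1, Thrsp and Pnpla3 passed at unadjusted p under 0.05, again with no share of all genes at that threshold to set beside them.

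The difference of the rhythm between genotypes, which asks whether size or timing differed, was called for Pnpla3 and Mid1ip1, against 1.44% of all genes. Its size was 2.14 ± 0.27 for Pnpla3 (adjusted p = 0.000531) and 1.71 ± 0.26 for Mid1ip1 (adjusted p = 0.00332). Srebf1 at 0.93 (adjusted p = 0.0631), Thrsp at 0.92 (0.0708) and Mlxipl at 0.69 (0.136) did not pass. It was, without CON CT19 replicate 2, 2.03 for Pnpla3 (adjusted p = 0.00175) and 1.47 for Mid1ip1 (adjusted p = 0.00513). An F test over the 4 times with no cosine gave Srebf1 an adjusted p of 0.0328 in CON and 0.0387 for the difference between genotypes, and 0.244 and 0.143 in the same order without CON CT19 replicate 2.

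Markers of the mesothelium, the lining of the fat pad, also moved with time. Of 10 markers 9 were called rhythmic in CON, against 17.1% of all genes, and 0 in MUT, against 0.348%. Markers of fibroblasts and preadipocytes (5 of 8), macrophages (4 of 10) and endothelium (3 of 8) were also called in CON. So were 2 of 9 adipocyte and 1 of 4 brown adipocyte markers, and none of the liver or neuron markers. For the mesothelium list the summed level, taken as the median deviation of the list, was 0.29 to 0.77 in MUT and 0.13 to 0.46 in CON at CT19. At CT7 it was -0.74 to 0.24 in MUT and -0.86 to -0.79 in CON. With this score as a covariate, the difference at CT19 was -1.09 for Mid1ip1, -0.81 for Srebf1, -0.74 for Pnpla3, -0.62 for Thrsp and -0.56 for Mlxipl. All 5 were called, and 189 of all 15526 tested genes were. With the covariate and without CON CT19 replicate 2, Mid1ip1 was the 1 gene called (-0.85, adjusted p = 0.0404), and the other genes had -0.67 (Pnpla3), -0.65 (Srebf1), -0.54 (Thrsp) and -0.40 (Mlxipl), with adjusted p of 0.111 to 0.224. In the covariate fit of all arrays, the CON rhythm of Pnpla3 was 2.18 (adjusted p = 5.85e-06) and that of Mid1ip1 1.44 (adjusted p = 0.00552). That of Thrsp was 0.74 and passed (adjusted p = 0.0381), and 1497 of all genes were called. The rhythm difference was called for all 5 in that fit, where 429 of all 15526 tested genes were called, against 223 without the covariate. Without that array the covariate fit called Pnpla3 and Mid1ip1 in the CON rhythm (2.09 and 1.12) and in the rhythm difference (2.20 and 1.496), and Thrsp no longer passed in CON (adjusted p = 0.111). With all arrays and the covariate, CT19 against CT7 in MUT was -0.097 for Pnpla3, -0.23 for Mlxipl, -0.20 for Thrsp, -0.24 for Mid1ip1 and -0.33 for Srebf1, each nearer 0 than without it. The MUT rhythm was then 0.29 for Pnpla3, 0.24 for Mlxipl, 0.30 for Thrsp, 0.36 for Srebf1 and 0.76 for Mid1ip1, the last hardly moved. CT13 against CT1 in MUT was farther from 0 with the covariate for all 5, from 0.07 for Mlxipl to 0.72 for Mid1ip1. None of these values within MUT was called. The part of mesothelial cells in these results was not otherwise tested.

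Mid1ip1 has 3 probe sets on the array, and they did not give the same result. The brightest, with a mean signal of 9.39, was the one tested. The dimmest, at 7.60, had a rhythm of 0.48 in CON (adjusted p = 0.0119), with group means of 7.53 in MUT and 7.94 in CON at CT19 (7.81 in CON without replicate 2). The remaining one, at 7.89, had a size of 0.12 in CON (adjusted p = 0.432), with 7.74 in MUT and 7.87 in CON at CT19 (7.89 in CON without replicate 2). Averaged over the 3, the difference at CT19 was -0.56 (adjusted p = 0.00472) and the CON rhythm 0.54 (adjusted p = 0.00284). Sizes for Mid1ip1 are thus those of 1 probe set, and calls held for the mean.

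**Figure D3:**
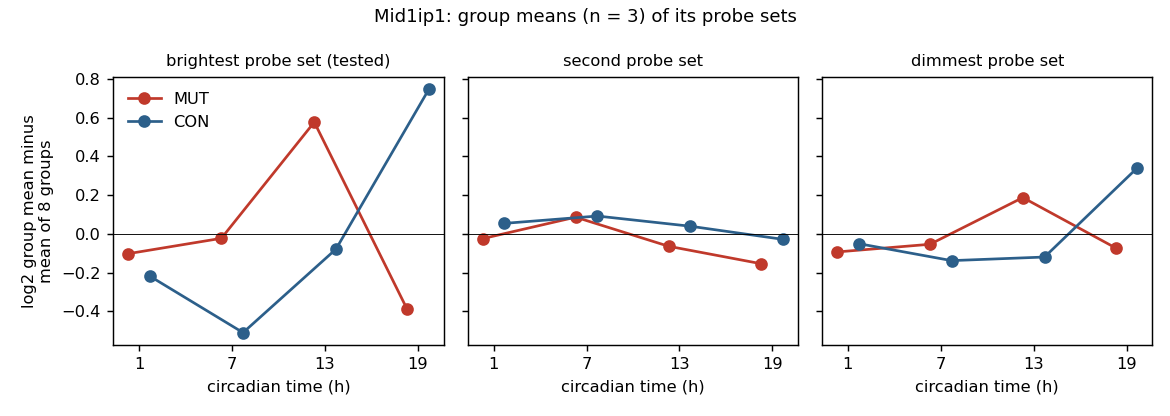
Group means (3 arrays each) of the 3 probe sets of Mid1ip1, as log2 signal minus the mean of the 8 groups (y), against circadian time in hours (x), MUT left of CON. The brightest and dimmest probe sets are high in MUT at CT13 and in CON at CT19. The remaining one is nearly flat in CON, and in MUT it is highest at CT7 and lowest at CT19.

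Mice of 1 group that were high in one of these genes tended to be high in the others. Deviations of the 24 arrays from their group means correlated positively for all 10 pairs, with Pearson's r from 0.47 to 0.84. All 10 pairs had an adjusted p under 0.05 by a permutation test within groups (two-sided, adjusted over the 10 pairs), and 9 of 10 by Spearman's rho. Correlations of this size were not rare: of all pairs of tested genes 5.98% had an r of at least the weakest of the 10, and of pairs among the 4214 genes at least as bright as Mid1ip1 12% did, with 63.1% above 0. The strongest pair was Srebf1 and Mid1ip1 (r = 0.84, adjusted p = 0.0016; rho = 0.79, adjusted p = 0.0035). Mlxipl and Pnpla3 followed (r = 0.81, adjusted p = 0.0014; rho = 0.81, adjusted p = 0.0021), then Thrsp and Pnpla3 (r = 0.80, adjusted p = 0.0014; rho = 0.77, adjusted p = 0.0021). The weakest was Srebf1 and Pnpla3 (r = 0.47, adjusted p = 0.0248; rho = 0.48, adjusted p = 0.0347). The pair that missed by rank was Srebf1 and Mlxipl (r = 0.52, adjusted p = 0.0482; rho = 0.44, adjusted p = 0.0795). Leaving out the 2 arrays farthest from the median, among them CON CT19 replicate 2 in 9 of 10 pairs, left r between 0.36 and 0.84. The relation of Mlxipl and Mid1ip1 rested on such arrays: r was 0.58 over all arrays (adjusted p = 0.0482; rho = 0.52, adjusted p = 0.0481), 0.36 without them, 0.12 within MUT and 0.82 within CON. Values on 1 array share its RNA sample and its normalization. The SD between mice of a group, pooled over times, ran from 0.15 (Mlxipl) to 0.27 (Pnpla3) in MUT and from 0.22 (Mlxipl and Srebf1) to 0.30 (Mid1ip1) in CON.

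**Figure D4:**
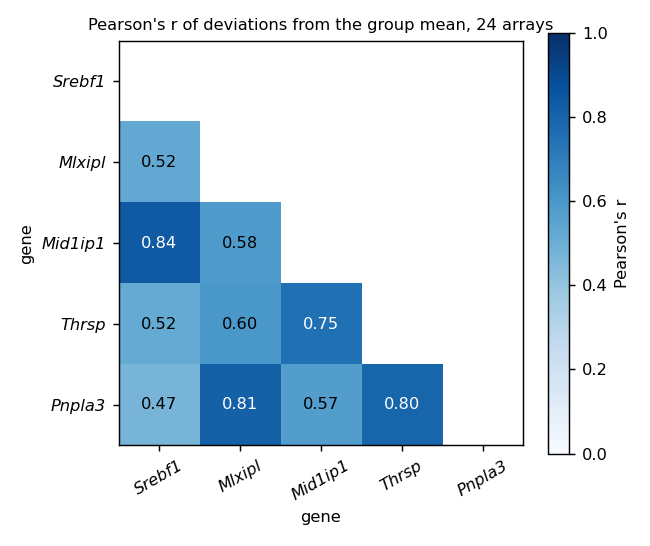
Pearson's r (colour and number, on a scale of 0 to 1) between the deviations of each pair of genes from their group means over 24 arrays. All 10 values are above 0, with 0.84 for Srebf1 and Mid1ip1 the highest and 0.47 for Srebf1 and Pnpla3 the lowest.

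Over the 24 arrays, CON CT19 replicate 2 included and group means not removed, the genes most like each member were taken by Pearson's r. Those most like Srebf1 were Aacs (0.85), whose enzyme activates the ketone body acetoacetate for lipid synthesis, Sppl2b (0.80), a membrane protease gene, and the kinase gene Mapk6 (0.78). For Mlxipl they were A530016L24Rik (0.87), Hk2 (0.85), the hexokinase of insulin-responsive tissues, and Aacs (0.84). Mid1ip1 had the closest companions of the 5. They were Ppp1r3b (0.91), a glycogen-targeting subunit of protein phosphatase 1, Angptl8 (0.91), a feeding-induced regulator of lipoprotein lipase, and Mlx (0.88), the partner of ChREBP. For Thrsp they were 2010003K11Rik (0.88), Mfsd12 (0.87) and Pmvk (0.86), a gene of the mevalonate pathway. For Pnpla3 they were Pcbp1 (0.88), which encodes an RNA-binding protein, Gnptab (0.85), of the lysosomal sorting pathway, and Gypc (0.85), a membrane glycoprotein gene. Among the members themselves, r over 24 arrays ran from 0.40 (Mlxipl and Pnpla3) to 0.78 (Srebf1 and Mid1ip1).

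Counts of the gene lists are read against the shares of all genes called, which were 2.74% at CT19, 17.1% in the CON rhythm, 0.348% in the MUT rhythm, 1.44% in the rhythm difference and 21.7% in the daily mean. Enzymes of fatty acid synthesis, the common targets of SREBP-1 and ChREBP, were lower at CT19 in MUT in 2 of 14 tested genes, Aacs and Acacb, and higher in none. Their median difference was -0.61, against -0.0003 for all tested genes. Aacs fell by 1.29 ± 0.20 (2.44-fold lower, adjusted p = 0.00115), and Acacb, the mitochondrial acetyl-CoA carboxylase, by 0.61 ± 0.13 (adjusted p = 0.0201). Large values that did not pass included Acly, which makes cytosolic acetyl-CoA (-1.03 ± 0.34, adjusted p = 0.0917), and Elovl6, a fatty acid elongase (-0.94 ± 0.33, adjusted p = 0.103). In CON 3 of the 14 were rhythmic, a share near the 17.1% of all genes: Elovl6 (1.42 ± 0.33, CT20.19), Pgd of the pentose phosphate pathway (0.83 ± 0.18, CT20.77) and the desaturase gene Fads2 (0.49 ± 0.12, CT22.01). In MUT Aacs alone of the list was rhythmic (1.14 ± 0.20, CT8.24, adjusted p = 0.0164), and its rhythm differed between genotypes by 1.61 ± 0.28 (adjusted p = 0.00826). In the daily mean 2 of 14 were lower in MUT, Acacb by 0.32 and the citrate carrier Slc25a1 by 0.25, a share no higher than the 21.7% of all genes called. Without CON CT19 replicate 2, Aacs was the 1 gene of the list called at CT19, and Fads2 and Pgd the 2 rhythmic in CON.

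Among genes of SREBP processing and classic SREBP targets, 2 of 8 were lower at CT19 in MUT and none was higher, with a median of -0.07. Insig1, which holds SREBP in the endoplasmic reticulum and is itself an SREBP target, fell by 1.04 ± 0.22 (2.06-fold lower, adjusted p = 0.0172). Lpin1, a phosphatidate phosphatase, fell by 0.44 ± 0.09 (adjusted p = 0.014). Without CON CT19 replicate 2, 0 of the 8 were called at CT19. Srebf2, the sister gene of Srebf1 that serves cholesterol synthesis, was the 1 rhythmic gene of 8 in CON (0.39 ± 0.06, CT19.82, adjusted p = 0.000987), and Srebf2 and Lpin1 were the 2 without that array. In the daily mean 2 of 8, Srebf2 and the protease gene Mbtps2, were higher in MUT, by 0.09 and 0.15, a share near the 21.7% of all genes called.

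Of ChREBP partners and glucose-response genes 1 of 12 was lower and 2 were higher in MUT at CT19, with a median of -0.20 (-0.12 without CON CT19 replicate 2). Hk2 fell by 0.78 ± 0.13 (1.72-fold lower, adjusted p = 0.00233). Pdk4, which shuts off glucose oxidation in fasting, was higher by 1.04 ± 0.14 (2.06-fold, adjusted p = 0.000374), and Txnip, an inhibitor of glucose uptake, by 0.59 ± 0.11 (1.51-fold, adjusted p = 0.00547). Without CON CT19 replicate 2, Pdk4 and Hk2 were still called. In CON Mlx (0.76 ± 0.17, CT18.37) and Txnip (0.53 ± 0.11, CT4.68) were rhythmic, the first not without that array. In MUT Pdk4 was rhythmic, with a peak at CT19.77 (1.03 ± 0.14, adjusted p = 0.00145), and Pdk4 was also higher in the daily mean by 0.28. The rhythm difference was called for Pdk4 (1.27 ± 0.20) and Txnip (0.97 ± 0.15).

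In the PNPLA family and among lipid droplet coat and lipase genes, 1 of 17 was lower at CT19 in MUT and none was higher, with a median of 0.02 (-0.0001 without CON CT19 replicate 2). That gene was G0s2, an inhibitor of adipose triglyceride lipase, which fell by 0.86 ± 0.17 (1.81-fold lower, adjusted p = 0.0105). G0s2 was not called without CON CT19 replicate 2. Pnpla2, which encodes that lipase and is the nearest well-studied relative of Pnpla3, differed by 0.09 ± 0.06 (adjusted p = 0.376). In CON 7 of the 17 were rhythmic, 4 of them without that array, and the peaks did not share a time. G0s2 (0.80 ± 0.17) peaked at CT17.64, near Pnpla3, while Mgll (0.38 ± 0.08), Pnpla8 (0.42 ± 0.09) and Pnpla7 (0.32 ± 0.07) peaked at CT3.2, CT3.24 and CT6.79. Sizes of these relatives were all below the 1.63 of Pnpla3. In the daily mean Plin5, which couples droplets to mitochondria, fell by 0.11 and Cidea, of brown fat droplets, by 0.27 in MUT. None of the 17 had a called rhythm in MUT or a called rhythm difference.

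Of the regulators upstream, 4 of 20 were called at CT19. Angptl8 fell by 2.56 ± 0.33 in MUT (5.90-fold lower, adjusted p = 0.00033) and Bhlhe40, a clock-linked repressor, by 1.77 ± 0.22 (3.41-fold lower, adjusted p = 0.00019). Nr1d1, which encodes the repressor REV-ERB alpha and a known brake on lipogenic genes, was higher by 2.24 ± 0.17 (4.73-fold, adjusted p = 8.43e-08). Irs2, an insulin signalling adaptor that is raised in fasting and was named after its values were seen, was higher by 0.64 ± 0.17 (1.56-fold, adjusted p = 0.0414), and was not called without CON CT19 replicate 2. The list's median was -0.02 (-0.04 without that array). In CON 7 of the 20 were rhythmic, and 7 without that array. Angptl8 had a size of 2.79 ± 0.33 with a peak at CT17.84, Bhlhe40 1.66 ± 0.22 at CT15.98 and Thra, a thyroid hormone receptor gene, 0.63 ± 0.08 at CT1.43. The rhythm differed between genotypes for 5 of the 20: Angptl8 (3.00 ± 0.47), Nr1d1 (3.66 ± 0.24), Bhlhe40 (1.83 ± 0.31), Thra (0.56 ± 0.11) and Irs2 (1.11 ± 0.24). Without CON CT19 replicate 2 it differed for 4 of the 20, with Irs2 no longer called. Pparg and Cebpa, the master factors of the adipocyte, differed by -0.10 ± 0.07 (adjusted p = 0.384) and -0.07 ± 0.09 (adjusted p = 0.636) at CT19, and were named after their values were seen.

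**Figure D5:**
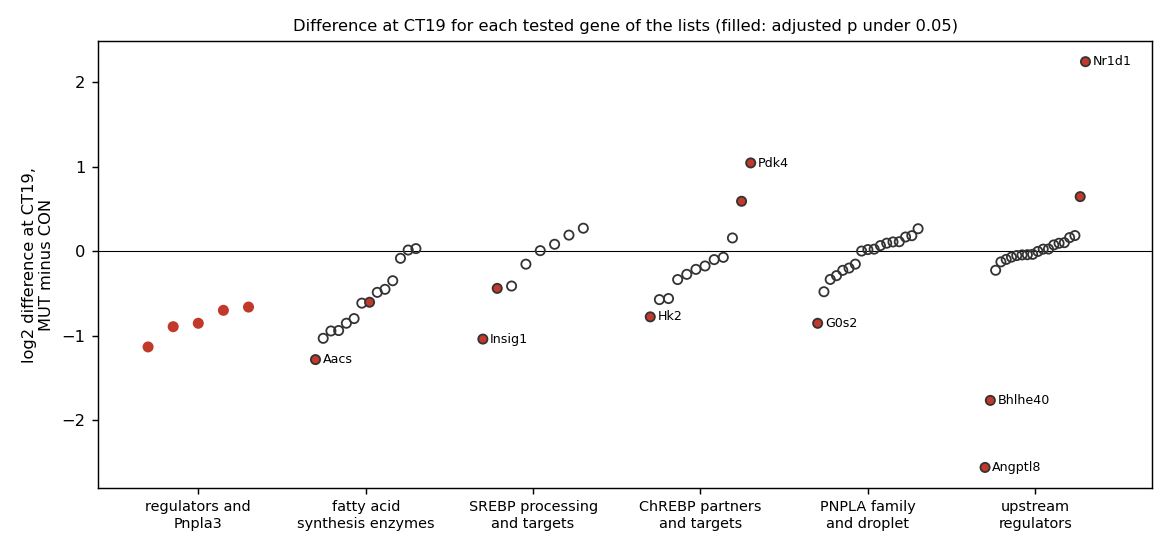
Difference at CT19, MUT minus CON, in log2 (y) for each tested gene of 6 lists (x, sorted within a list), filled where the adjusted p is under 0.05. All 5 regulators lie below 0, and the synthesis enzymes lie mostly below 0 with 2 of 14 filled.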

How the data were processed

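The authors deposited log2 signals of 34390 probe sets on 24 arrays, made with RMA in Affymetrix Expression Console per the submitters' processing notes; versions are not given in the sources read for this work. RMA subtracts background, quantile-normalizes the arrays and summarizes probes, so a shift common to all genes of an array is removed. Array medians of the deposited log2 values ran from 7.80 to 7.94.

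Probe sets with 1 gene symbol (23521; 1814 had several and 9055 none) were reduced to the brightest per gene, and the dimmest 30% of genes by mean signal (below 7.42) were dropped, which kept 15526 of 22180 genes. A limma 3.58.1 model in R 4.3.3 with the 8 groups (16 residual df) gave all contrasts and moderated F tests of a 24-h cosine and sine, with p-values adjusted by Benjamini-Hochberg over all tested genes and a threshold of 0.05. With 4 times 6 h apart, a cosine of another period cannot be told apart. Deviations between mice were tested with 1e+05 permutations within groups. Figures used matplotlib 3.10.9 in Python 3.11.15.

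Besides the 5 genes, the text names the 3 genes most correlated with each, and list genes by smallest p in the rhythm tests or past the threshold, unless stated otherwise. Members and lists were chosen with earlier results of these data known, so their counts beside the shares of all genes are descriptions. Replicates are 3 mice per group, per the labels, and p-values measure the spread between these mice. Title letters were checked as pairs: correlations of same-letter deviations ran from -0.431 to 0.337, so they were not taken as pairs. Alternatives covered normalization, filter, probe sets, variance, weights, covariate, block, arrays in the fit and each array left out; 4 that leave out arrays of narrow spread or high liver markers, 2 of them joined to the F test without a cosine or the covariate, were chosen after seeing the data. Data of 15526 genes were simulated with independent normal noise for each gene and array, without correlated genes or an array that stands apart. There, 1.5-fold changes at CT19 were recovered in 92% of 100 genes and 2-fold changes in 100%, with 8 false calls. For the CON rhythm the shares were 88% and 99%, with 14 false calls, and for the rhythm difference 64% and 94%, with 8. Real arrays lack that independence, so these shares do not carry over to them.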

Additional observations from a re-analysis of the deposited data

Results flagged for a closer look

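The 24-h rhythm of Pnpla3 and Mid1ip1 differed between genotypes by a direct limma test. The difference was 2.14 for Pnpla3 (adjusted p = 0.000531) and 1.71 for Mid1ip1 (adjusted p = 0.00332). Pnpla3 was higher in MUT than in CON in all 3 arrays at CT1, CT7 and CT13 and lower in all 3 at CT19, and Mid1ip1 was higher in all 3 at CT7 and CT13 and lower in all 3 at CT19. Both calls held in each of the 39 alternatives run, with values from 1.98 to 2.37 for Pnpla3 and from 0.80, as the mean of the probe sets, to 1.90 for Mid1ip1.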

How the results depend on the processing

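No called difference changed sign under an alternative; 16 of the 35 that were not called did. Of the single-gene values under the alternatives, 2195 kept their side of the threshold, 35 lost and 50 gained a call. Counts of the 5 genes called moved as follows. Brackets give the count of all 15526 tested genes called in the same setting. With array weights there were 3 in the CON rhythm (4194), 4 in the MUT rhythm (555), 5 in the rhythm difference (737), 3 in the daily mean (4778), 2 at CT7 (2727) and 4 for CT19 against CT7 in MUT (1108). With the mesothelium covariate there were 3 in the CON rhythm (1497), with Thrsp added, 5 in the rhythm difference (429) and 1 at CT13 (54). With arrays shifted to the same median there was 1 at CT13 (236). The F test without a cosine called 3 in the CON rhythm (2057) and 3 in the rhythm difference (211), with Srebf1 added each time. The filter at the 60th percentile called 3 in the rhythm difference (307 of 8872 tested), again with Srebf1 added. The fit of the CT7 arrays alone called 2 at CT7 (832), and that of the CT19 arrays alone 4 at CT19 (187), without Mlxipl. Without the 3 arrays of narrow spread 0 were called in the daily mean and 0 at CT7. Without the 2 arrays of highest liver markers there were 2 in the MUT rhythm (184), 1 at CT13 (106), 1 at CT19 (42) and 1 for CT19 against CT7 in MUT (184). With CON CT19 replicate 2 left out, the F test without a cosine called 1 in the MUT rhythm (74), which was Mid1ip1. The mesothelium covariate then gave 1 at CT13 (47) and 1 at CT19 (30). The cause was not tested, beyond fewer arrays where arrays were left out. Leaving out each array gave ranges of 2 to 3 for the CON rhythm, 0 to 1 for the MUT rhythm, 2 to 3 for the rhythm difference, 1 to 3 for the daily mean, 1 to 5 at CT19, 1 to 1 at CT7, 0 to 0 at CT1 and CT13, 0 to 1 for CT19 against CT7 in MUT and 2 to 4 in CON. The replicate block kept all 5 calls at CT19 (Pnpla3 -0.90, adjusted p = 0.0279) and ended the call of Srebf1 for CT19 against CT7 in CON (adjusted p = 0.0575); it changed no other call of the 5 genes. That Srebf1 call ended in 14 of 37 alternatives: the block, quantile normalization (adjusted p = 0.0874), no level filter, trended and robust variance, the mesothelium covariate with and without CON CT19 replicate 2, both removals of several arrays, and 6 removals of 1 array. Over all genes, the lowest, main and highest counts called were 989, 2650 and 4194 for the CON rhythm, 17, 54 and 555 for the MUT rhythm, and 76, 223 and 737 for the rhythm difference. They were 187, 3365 and 4778 for the daily mean, 0, 7 and 58 at CT1, 49, 629 and 2727 at CT7, 0, 50 and 236 at CT13, and 30, 425 and 1642 at CT19. For CT19 against CT7 they were 13, 129 and 1108 in MUT and 181, 1658 and 2678 in CON, and for CT13 against CT1 3, 8 and 39 in MUT and 275, 1103 and 1743 in CON. With 3 arrays per group, 1 array can decide a call.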
